A study of Isoetes sinensis with 3 samples.

Results

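The genes described here are the protein-coding genes of the quillwort Isoetes sinensis whose 5′ untranslated region (5′ UTR) is interrupted by at least 1 intron. They were found in the gene annotation that accompanies RNA sequencing of samples labelled root, shoot and sporophyte, with 1 library for each tissue. The annotation belongs to no single tissue, so no tissue was compared with another. The genes were chosen by annotated positions alone: a gene on the 22 pseudochromosomes was taken when its mRNA had at least 2 five-prime UTR segments with a gap between them, or a five-prime UTR segment with a gap before the first coding (CDS) segment. This gave 4938 genes with 6706 introns, out of 57303 annotated genes, 54063 of them on pseudochromosomes. A 5′ UTR of any kind was annotated in 24782 genes on pseudochromosomes, and the remaining 19844 of these had an intronless 5′ UTR and served for comparison.

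The 5′ UTR is the part of a transcript between its first base and the start codon. Introns that lie there are removed before translation and do not change the protein, but in flowering plants some introns close to the transcript start are known to raise the amount of mRNA made from a gene. Isoetes belongs to the lycophytes, a lineage of vascular plants that reproduce by spores, and I. sinensis is a tetraploid whose chromosomes form homoeologous pairs. Each gene has therefore often kept a copy on a partner chromosome, and the copies' UTR introns can be set side by side.

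The annotated positions of 5′ UTR, CDS and exons fitted together in every case. The 5′ UTR lay upstream of the CDS in all 24782 genes that have one, and each gap in it was also a gap between annotated exons. The shortest gap among the chosen genes was 20 bp, whereas the comparison genes have a gap of 0 by the rule itself. The coding bases could be divided by 3 without remainder in 99.7% of the genes with a 5′ UTR intron and in 99.8% of those with an intronless 5′ UTR. All genes of both groups belong to the models without a source name in the annotation. Genome sequence was not analysed here, so no splice site or UTR sequence is printed.

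Genes with a 5′ UTR intron were found on every chromosome at a similar rate. They made up 9.13% of the genes on pseudochromosomes (SD 0.694 percentage points over 22 chromosomes) and 19.9% of those with an annotated 5′ UTR (SD 1.05). Chromosome 4 had the highest share, 241 of 1060 genes with a 5′ UTR (22.7%), and chromosome 10 the lowest, 193 of 1082 (17.8%). The strands were used evenly, with 49.9% of the genes on the plus strand. These shares follow from the rule and are given as a description.

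Most of these genes had a single UTR intron. There were 3735 genes with 1 intron in the 5′ UTR (75.6%), 891 with 2, 188 with 3 (3.81%) and 124 with 4 or more (2.51%). The highest number was 12, reached by 2 genes. One of them, evm.TU.Chr4.3984 on chromosome 4 (70562514 to 70568962, minus strand), carried 2630 bp of spliced 5′ UTR before a CDS of only 321 bp in 3 segments. The lengths of its UTR introns repeated themselves. Introns of 300, 462, 64 and 647 bp in this order occurred near the transcript start and again 2932 bp further along, so 4 introns had a counterpart of the same length at the same distance. Among the 312 genes with at least 3 introns in the 5′ UTR, it was the only one in which at least 2 of them recurred at 1 distance, a search made after the values of this gene were seen. The other, evm.TU.Chr21.2735 on chromosome 21 (53007810 to 53014129), had 12 UTR introns of 60 to 271 bp in front of an uninterrupted CDS of 1719 bp, and its last UTR intron lay 1215 bases before the start codon.

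Introns of the 5′ UTR were short in most genes, but less uniformly so than coding introns of the same genes. Their median length was 141 bp (SD 16.1 bp over 22 chromosomes), against 90 bp (SD 2.67) for the 21788 coding introns of these genes. Lengths of 60 to 100 bp were found in 34.4% of the UTR introns (SD 3.79 percentage points) and in 55.4% of the coding introns (SD 2.19). Introns over 1 kb made up 6.56% of the UTR introns (SD 0.981) and 3.88% of the coding introns (SD 0.875). The upper quartile was 354 bp for UTR introns and 208 bp for coding introns, while the lower quartiles, 85 and 75 bp, lay close together. Both kinds had their most frequent length at 70 to 79 bp, which held 805 of the 6706 UTR introns and 4737 of the 21788 coding introns.

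**Figure D1:**
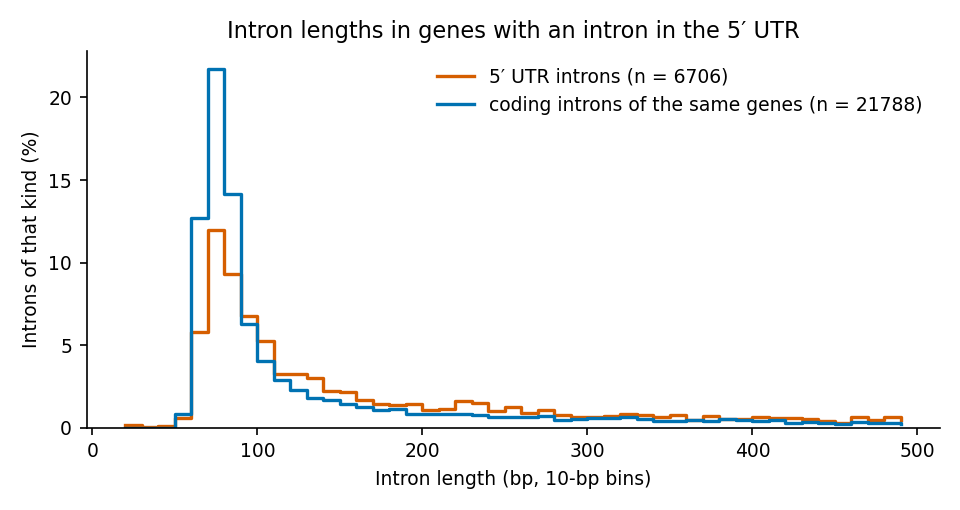
Share of introns (%, y axis) by length in 10-bp bins up to 500 bp (x axis) for 5′ UTR introns and for coding introns of the same 4938 genes. Both curves peak at 70 to 79 bp, with 805 UTR introns and 4737 coding introns (21.7%), and the UTR curve lies above the coding curve in the bins after 89 bp.

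Within single genes, the UTR introns were longer than the coding introns. In the 3795 genes that have a coding intron as well, the median UTR intron was longer than the median coding intron in 63.1% of the genes (SD 3.15 percentage points over 22 chromosomes). The median within-gene ratio was 1.34 (log2 ratio 0.42, SD 0.09 over 11 chromosome pairs), and the ratio was above 1 in 11 of 11 pairs (exact sign-flip permutation test over pairs, two-sided p = 0.000977, adjusted p = 0.00254). The genes differed widely among themselves, with quartiles of the ratio at 0.777 and 3.18. In 714 genes (18.8%) the UTR intron was more than 4 times longer, and in 239 genes (6.30%) more than 4 times shorter. A UTR intron was longer than every coding intron of its gene in 35.9% of the genes. This share depends on how many introns of each kind a gene has, and no baseline was computed for it. There are no replicates of an annotation, so each p tells only how evenly a difference recurs over the 11 pairs of homoeologous chromosomes. The smallest value that this exact permutation test allows with 11 pairs is p = 0.000977. Adjustment was over 13 comparisons, and an alternative setting was adjusted over the comparisons it could be run for, which were fewer in some settings.

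Place in the transcript moved with intron length. Against the first coding intron of the same gene, the UTR introns were longer by a smaller ratio of 1.16 (log2 0.22, SD 0.08, 11 of 11 pairs, exact permutation p = 0.000977, adjusted p = 0.00254), and in genes with exactly 1 UTR intron by a log2 ratio of 0.13 that still passed. Genes with an intronless 5′ UTR have their first annotated intron in the CDS. Their annotated 5′ UTRs can be short (lower quartile 50 bp), and whether an upstream intron is missing from them was not tested. The first annotated intron of these genes can be set against the first intron of the genes studied, which lies in the UTR. The medians were 141 bp (SD 16.3 over 22 chromosomes) in genes with a 5′ UTR intron and 147 bp (SD 5.97) in genes with an intronless 5′ UTR. This difference did not pass the test (log2 ratio -0.06, values from -0.26 to 0.36 over 11 pairs, exact permutation p = 0.373, adjusted p = 0.373). Its sign varied with the setting, at 0.04 with exactly 1 UTR intron, 0.03 with means of log2 lengths and -0.14 among genes with a spliced 5′ UTR of at least 100 bp, where it passed (exact permutation test, adjusted p = 0.0446 over 10 comparisons).

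**Figure D2:**
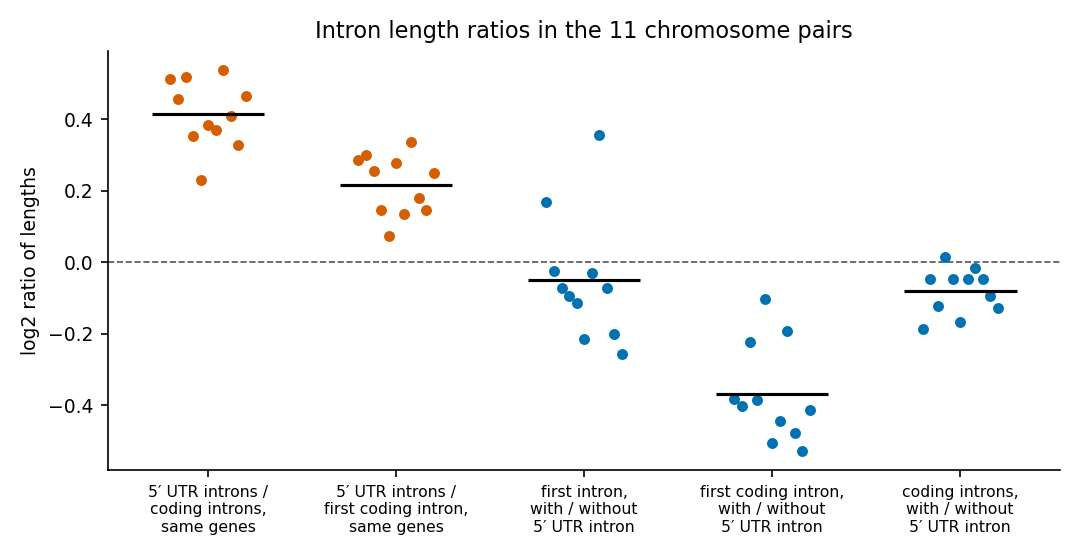
Log2 ratio of intron lengths (y axis) for 5 comparisons (x axis), with 1 point for each of the 11 chromosome pairs and a line at their mean. The comparisons of UTR introns with coding introns of the same genes lie above 0 in 11 of 11 pairs, those of the first intron between groups lie on both sides of 0, and those of the first coding intron lie below 0 in 11 of 11 pairs.

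The coding introns of genes with a 5′ UTR intron were themselves shorter than those of the comparison genes when place in the transcript was not matched. The first coding intron had a median of 115 bp (SD 13.3) in genes with a 5′ UTR intron and 147 bp (SD 5.97) in genes with an intronless 5′ UTR, a log2 ratio of -0.35 (SD 0.14 over pairs, below 0 in 11 of 11 pairs, exact permutation p = 0.000977, adjusted p = 0.00254). With means of log2 lengths the log2 ratio was -0.17 and still passed. That intron is the second or a later one of the annotated transcript in the genes studied and the first in the others. When the second intron of the transcript was compared in both groups, a comparison chosen after seeing the data, the direction turned and the test was not passed. The medians were 120 bp (SD 10.7 over 11 pairs) in 2888 genes with exactly 1 UTR intron and 110 bp (SD 6.17) in 12725 genes with an intronless 5′ UTR (log2 ratio 0.13, exact permutation p = 0.0752). From the third intron on, medians in genes with 1 UTR intron and in genes with an intronless 5′ UTR were 97 and 97 bp, then 94 and 93 bp for the fourth. They were 94 and 90 bp for the fifth and 86 and 91 bp for the sixth. Over all coding introns the medians were 90 bp (SD 2.67) and 95 bp (SD 3.23) in the same order of groups, a log2 ratio of -0.08 that passed (SD 0.06, above 0 in 1 of 11 pairs, exact permutation p = 0.00293, adjusted p = 0.00635). Among genes with 2 to 5 coding exons it was -0.23, also past the threshold. Both values include the first coding intron, which is the first annotated intron of the transcript only in the comparison genes. Without the first coding intron the log2 ratio over all genes was -0.049 (SD 0.048, exact permutation p = 0.0117), a comparison added after seeing the data. Place still differed there. The coding introns left begin at the third intron of the transcript or later in the genes studied and at the second in the comparison genes.

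**Figure D3:**
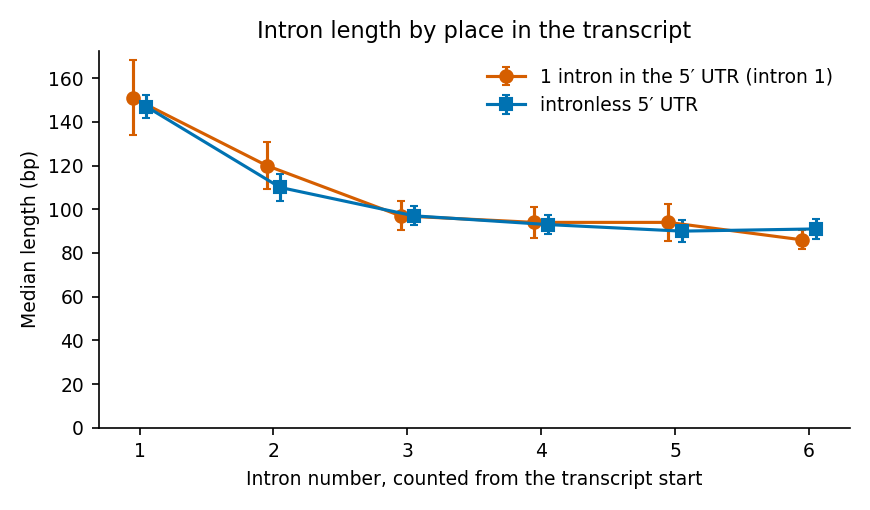
Median intron length (bp, y axis) by the number of the intron counted from the transcript start (x axis) in genes with exactly 1 intron in the 5′ UTR, whose intron 1 is the UTR intron, and in genes with an intronless 5′ UTR. Error bars are SDs over 11 chromosome pairs. Medians decline from intron 1 (151 and 147 bp) to intron 3 (97 and 97 bp) in both groups.

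Among the UTR introns themselves, the medians followed no steady decline with place. The median was 141 bp for the first UTR intron (4938 introns), 139 bp for the second (1203 introns), 158 bp for the third (312 introns) and 121.5 bp for the fourth (124 introns), an order that was not tested. In genes with at least 2 UTR introns, those after the first were still longer than the coding introns of the same gene (log2 ratio 0.36, SD 0.23, exact permutation p = 0.000977), a comparison added after seeing the data.

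The last UTR intron lay close to the start codon in many genes. A median of 50 bases of UTR separated it from the start codon, with quartiles of 18 and 125 bases. In 100 genes (2.03%) the intron touched the start codon, so that the CDS opens an exon, and in a further 684 genes (13.9%) the distance was 1 to 10 bases. Distances over 500 bases were found in 196 genes (3.97%). The last UTR intron had a median length of 155 bp in the 784 genes with at most 10 bases, 180.5 bp in the 1694 genes with 11 to 50 bases, 141 bp in the 1702 genes with 51 to 200 bases and 118 bp in the 758 genes with more. The first exon, wholly untranslated in these genes, had a median of 169 bp (SD 15.5 over 22 chromosomes). In genes with an intronless 5′ UTR the first exon includes coding bases, and its median was 470 bp (SD 31.2). The CDS was uninterrupted in 21.7% of the genes with an intronless 5′ UTR, whose first exon thus holds the whole CDS.

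**Figure D4:**
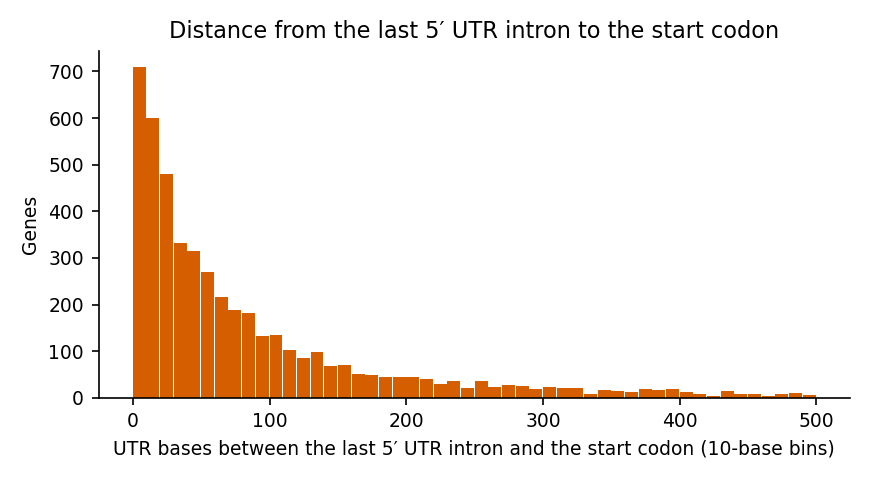
Number of genes (y axis) by the UTR bases between the last 5′ UTR intron and the start codon (x axis, 10-base bins, up to 500 bases). The bin of 0 to 9 bases holds 709 genes, the next 600, and counts fall to 133 at 90 to 99 bases.

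Spliced 5′ UTRs with an intron were the longer ones. Their median was 289 bp (SD 22.9 over 22 chromosomes), against 116 bp (SD 4.98) for intronless 5′ UTRs, and the ratio of medians was 2.49 (log2 ratio 1.32). Among genes with a spliced 5′ UTR of at least 100 bp the log2 ratio was 0.39. The share of genes with a UTR intron was 1.38% (69 of 5015) where the 5′ UTR measured under 50 bp, 19.7% (1086 of 5510) from 100 to under 200 bp, 31.6% (1695 of 5370) from 200 to under 400 bp and 44.7% (557 of 1245) at 800 bp or more. The rule and the UTR length both come from the same UTR segments, so these values are a description. The longest, in evm.TU.Chr19.1388 on chromosome 19 (26209558 to 26215365), had 3600 bp in front of a CDS of 339 bp and contained 3 introns of 72, 212 and 92 bp.

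The median CDS was shorter in genes with a 5′ UTR intron, by an amount that varied with the genes compared. It was 1026 bp (SD 81.5 over 22 chromosomes) in these genes and 1104 bp (SD 32.5) in genes with an intronless 5′ UTR (log2 ratio -0.11, SD 0.11 over pairs, above 0 in 2 of 11 pairs, exact permutation p = 0.00488, adjusted p = 0.00907). The rule uses the annotated start of the CDS, which also bounds the CDS length, so this length is not free of the rule. With exactly 1 UTR intron the log2 ratio was -0.020 and did not pass (exact permutation test, adjusted p = 0.489). It was -0.17 among genes with a spliced 5′ UTR of at least 100 bp and -0.29 among genes with 2 to 5 coding exons, and passed in both. In genes with over 10 CDS segments the order of the medians was the opposite, 2067 bp in 695 genes with a 5′ UTR intron and 1929 bp in 2912 genes with an intronless 5′ UTR, which was not tested. By CDS length, the share of genes with a UTR intron was 26.7% under 500 bp, 17.2% from 1000 to under 2000 bp and 21.6% at 2000 bp or more. The median CDS was 1089 bp with 1 UTR intron (SD 78.3 over 11 pairs), 891 bp with 2 (SD 141), 585 bp with 3 (SD 216) and 433.5 bp with 4 or more (SD 57.4). The spliced 5′ UTR took the opposite course, with medians of 250, 404, 462.5 and 854 bp. The mean number of CDS segments was 5.64 with 1 UTR intron and 3.05 with 4 or more. The mean number of exons of any kind was 6.80 and 8.5 in the same classes. The 5′ UTR and the CDS meet at the annotated start codon, so their courses are not independent of each other. Classes of 3 or more introns hold few genes in a chromosome pair, and their trend was not tested.

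**Figure D5:**
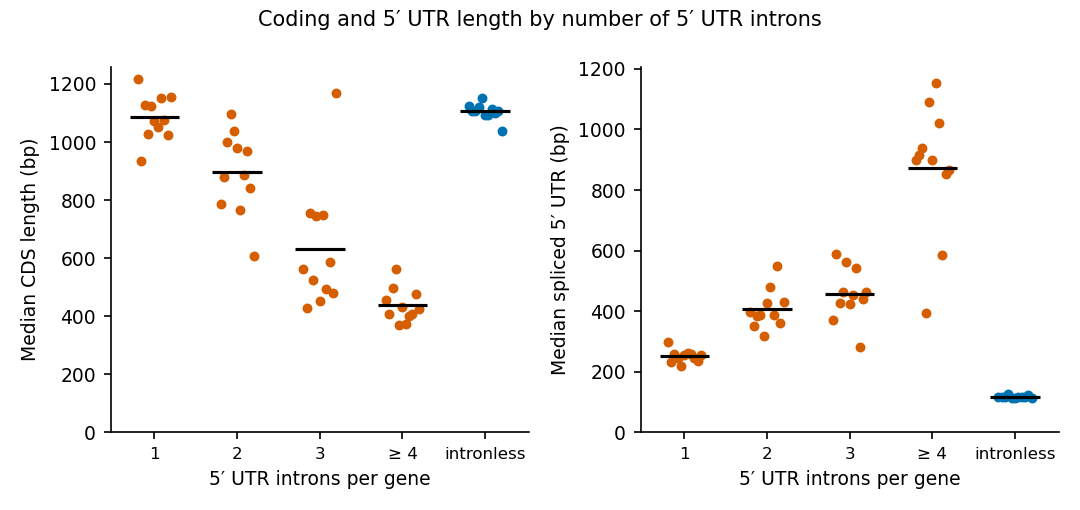
Median CDS length (left, bp) and median spliced 5′ UTR length (right, bp) by the number of 5′ UTR introns, and for genes with an intronless 5′ UTR. Each point is 1 of 11 chromosome pairs and lines are their means; over all genes the median CDS is 1089, 891, 585 and 433.5 bp with 1, 2, 3 and 4 or more UTR introns, and 1104 bp with an intronless 5′ UTR.

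The number of coding exons differed by less than the spread between chromosome pairs. Genes with a 5′ UTR intron had 5.41 CDS segments on average (SD 0.371 over 22 chromosomes) and genes with an intronless 5′ UTR had 5.61 (SD 0.258), a difference of -0.202 (SD 0.422 over pairs, exact permutation p = 0.119, adjusted p = 0.141). The number of CDS segments is bounded by the annotated start of the CDS and so is not free of the rule. With exactly 1 UTR intron the difference was 0.021 and did not pass (exact permutation test, adjusted p = 0.986). Without chromosomes 5 and 6 it was -0.307 and passed (adjusted p = 0.0159), and among genes with 2 to 5 coding exons it turned to 0.0800 (adjusted p = 0.0439 over 9 comparisons), both by the same exact permutation test. With the 22 chromosomes as units the adjusted p was 0.0473 over 12 comparisons (exact permutation test), but these units are homoeologous copies of each other and not independent. An uninterrupted CDS occurred in 23.1% of the genes with a 5′ UTR intron (1143 genes, SD 4.03) and in 21.7% of the others (SD 2.26), a difference of 1.41 percentage points (SD 3.78 over pairs) that did not pass (exact permutation p = 0.220, adjusted p = 0.238). In 1143 genes the only introns before the stop codon were thus those of the UTR. A UTR intron was found in 20.9% of genes with a single CDS segment (1143 of 5456) and in 19.3% of those with over 10 (695 of 3607). The gene with most coding exons, evm.TU.Chr16.3916_evm.TU.Chr16.3917 on chromosome 16 (71712617 to 71743315), had 57 CDS segments, 1 UTR intron of 83 bp and a median coding intron of 86 bp. Its name is made of a pair of gene names, as are those of 55 of the genes with a 5′ UTR intron (1.11%) and of 370 genes with an intronless 5′ UTR (1.86%).

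At the other end of the transcript, the differences also varied with the genes compared. A 3′ UTR was annotated in 90.3% of the genes with a 5′ UTR intron (SD 2.08) and in 92.7% of the others (SD 1.03), a difference of -2.39 percentage points (SD 2.05, exact permutation p = 0.00684, adjusted p = 0.0111). With exactly 1 UTR intron it was -1.76 and no longer passed (exact permutation test, adjusted p = 0.0571), and among genes with 2 to 5 coding exons it was -4.03 and passed. Among genes with a 3′ UTR, an intron in it was found in 13.0% (SD 2.22) and 11.2% (SD 1.37) in the same order of groups, a difference of 1.82 percentage points (SD 2.33, exact permutation p = 0.0283, adjusted p = 0.0368). This call was lost with exactly 1 UTR intron (1.27, adjusted p = 0.189) and when any of 8 chromosome pairs was left out, namely 1 and 2 (1.70), 5 and 6 (1.65), 9 and 10 (1.83), 11 and 12 (1.66), 13 and 14 (1.69), 15 and 16 (1.61), 19 and 20 (1.87) or 21 and 22 (1.57). Among genes with 2 to 5 coding exons the difference was 4.90 percentage points and passed (exact permutation test, adjusted p = 0.00439 over 9 comparisons). The spliced 3′ UTR had a median of 360 bp (SD 16.8) and 343 bp (SD 10.2), a log2 ratio of 0.07 (exact permutation p = 0.0137, adjusted p = 0.0197) that was not called with means of log2 lengths or with a 5′ UTR of at least 100 bp, and was 0.12 with 2 to 5 coding exons. In the 580 genes with introns in both UTRs, the median intron measured 134 bp in the 5′ UTR, 100 bp in the 3′ UTR and 89 bp in the CDS, and the 5′ UTR held the longer one in 364 genes (62.8%).

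Copies on homoeologous chromosomes mostly shared the UTR intron. Copies were called from structure alone, as pairs of genes on paired chromosomes with at least 5 CDS segments and the same ordered list of internal CDS lengths, shared by exactly 2 genes. Both copies had a 5′ UTR in 3028 such pairs. Both had a UTR intron in 504 pairs, 1 copy alone in 56 and neither in 2468. For a gene with a UTR intron, the copy had a UTR intron in 94.7% of cases (1008 of 1064, SD 3.26 over 11 pairs), and for a gene with an intronless 5′ UTR in 1.12% (SD 0.709). In the 56 pairs with 1 such copy, the median spliced 5′ UTR was 286.5 bp in the copy with the intron and 282 bp in the intronless copy. In 10 of them the intronless copy's 5′ UTR was no longer than the distance from intron to start codon in the other copy. Why 1 copy lacked an annotated UTR intron was not tested. A further 66 genes with a UTR intron had a copy with no annotated 5′ UTR. Membership uses the rule itself, so these shares carry no test, and whether the same transcript was used to annotate both copies was not tested.

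The number and place of the introns were also shared. Of the 504 pairs with a UTR intron in both copies, 482 (95.6%) had the same number. In these 482 pairs the distance from the last UTR intron to the start codon was identical in 428 (88.8%), whereas the whole spliced 5′ UTR had an identical length in 52.3%. The lengths of the introns themselves were compared between the copies. Of 591 UTR introns compared, 62.1% were equal in length between the copies (SD 7.61 over 11 pairs), against 73.5% (SD 3.30) of 3292 coding introns between internal CDS segments of the same genes. The difference was -11.4 percentage points (SD 7.18, below 0 in 11 of 11 pairs, exact permutation p = 0.000977, adjusted p = 0.00254). The copies were selected for identical internal CDS segments, which border these coding introns and not the UTR introns, so the coding introns are no neutral reference. The first coding intron, which borders the unmatched first CDS segment, was identical in 67.6% (SD 6.02). The UTR introns differed from it by -5.54 percentage points, with pairs from -21.3 to 8.69 (above 0 in 2 of 11 pairs, exact permutation p = 0.0459, unadjusted and chosen after seeing the data). The UTR introns compared were longer, with a median of 153 bp against 88 bp for the coding introns. Restricted to introns of 60 to 100 bp in the lower-numbered chromosome, 77.0% of 187 UTR introns and 86.7% of 1874 coding introns were identical, and the difference of -9.65 percentage points no longer passed (exact permutation p = 0.0557, chosen after seeing the data). Lengths within 5 bp of each other were found in 81.7% of the UTR introns and 87.8% of the coding introns.

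The copies with most UTR introns were evm.TU.Chr17.1686 on chromosome 17 (31216365 to 31228959) and evm.TU.Chr18.1393 on chromosome 18 (25016364 to 25028853), each with 6. From the transcript start their introns measured 84, 383, 417, 1232, 130 and 8151 bp on chromosome 17, and 81, 383, 431, 1093, 130 and 8162 bp on chromosome 18. The CDS was 921 bp in 5 segments in both, and 13 bases separated the last UTR intron from the start codon in both. The intron of about 8 kb contained another gene on the same strand in each copy, evm.TU.Chr17.1687 and evm.TU.Chr18.1394. In all, 23 of the 4938 genes held another annotated gene inside a UTR intron.

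Length differed most in evm.TU.Chr21.4032 on chromosome 21 (76571195 to 76633331) and evm.TU.Chr22.4373 on chromosome 22 (83255192 to 83258535). Both had a spliced 5′ UTR of 357 bp, a CDS of 1068 bp in 6 segments and a first UTR intron of 108 bp. The second UTR intron, which touched the start codon in both, measured 59393 bp on chromosome 21 and 611 bp on chromosome 22. It was the second longest of all UTR introns. The longest, 113924 bp, made up nearly all of evm.TU.Chr17.3233 on chromosome 17 (63403597 to 63520403), a gene with a CDS of 1923 bp in 5 segments whose longest coding intron was 247 bp. The next was 39563 bp, in evm.TU.Chr5.225 on chromosome 5 (4509153 to 4550994), which has an uninterrupted CDS of 1632 bp. Only 4 UTR introns exceeded 20 kb, and none of the genes with the 3 longest held another gene inside them. At the short end, 62 of the 6706 UTR introns measured under 60 bp and 17 under 40 bp. The shortest, 20 bp, were the only UTR introns of evm.TU.Chr6.3964 on chromosome 6 (76468350 to 76470353) and of evm.TU.Chr21.3020_evm.TU.Chr21.3021 on chromosome 21 (57979369 to 57982226). They are gaps in the annotation, and whether gaps this short are spliced was not tested.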

How the data were processed

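RNA of samples labelled root, shoot and sporophyte was sequenced by the study, with 1 library per tissue. The methods name roots, shoots and sporangia instead. No expression values or read depths were analysed here. The authors deposited start and end positions in bp, counted from 1, on their own assembly. By the methods, Evidence Modeler joined Augustus and Genscan predictions, GeneWise alignments and PASA transcript models, for which no source used here gives versions. FastQC, HISAT2 and Cufflinks stand in the processing notes of the submitters. Each gene had 1 mRNA. All positions are those of the deposited annotation. Gaps of at least 1 bp between neighbouring segments were taken as introns.

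Genes on both chromosomes of a homoeologous pair were pooled, and 11 pair values were tested against 0 by an exact two-sided sign-flip permutation test with Benjamini-Hochberg adjustment over 13 comparisons (threshold 0.05), or over those an alternative could be run for. Homoeologous chromosomes were paired by their numbers, 1 and 2 up to 21 and 22, and matched copies were sought within these pairs. Values printed are over all genes. The members and lists were chosen with earlier results of these data known. Named genes are those with extreme UTR intron number, intron length, UTR length or coding exons, and the extreme matched copies. Parsing and the test were checked on simulated data. Alternatives changed the genes counted, the centre, the units and the matching. Python 3.11.15, NumPy 2.4.6, pandas 2.3.3 and Matplotlib 3.10.9 were used.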

Additional observations from a re-analysis of the deposited data

How the results depend on the processing

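No paired analysis was possible because the libraries enter no comparison and so cannot be blocked by a replicate number; the comparisons within genes and between matched copies are paired by gene. Of 286 alternatives, 267 left their result on its side of the threshold or within its spread, 14 lost a call, 3 gained one and 2 turned direction. The 267 include results that changed sign without passing in either setting. The difference in coding exons was 0.021 with exactly 1 UTR intron. The log2 ratio of first introns was 0.04 in that setting and 0.03 with means of log2 lengths. The minimum of 20 bp could change nothing, since no annotated 5′ UTR intron is shorter. With exactly 1 UTR intron, the log2 ratio of CDS length was -0.020, the difference in 3′ UTR share -1.76 and in 3′ UTR introns 1.27 percentage points. The log2 ratio of spliced 3′ UTR length was 0.037 with means of log2 lengths and 0.012 with a 5′ UTR of at least 100 bp, a setting that moved the log2 ratio of first introns to -0.14 and into the called range. The difference in coding exons was -0.202 with 22 chromosomes as units, called there with homoeologues counted as independent, and 0.0800 with 2 to 5 coding exons. Leaving out 1 chromosome pair at a time gave -0.307 to -0.135 coding exons and 1.57 to 2.22 percentage points for 3′ UTR introns, and left the calls of the other 11 comparisons as they were. Of 7 alternatives added after seeing the data, the second intron in both groups turned the log2 ratio of first coding introns to 0.13, and introns of 60 to 100 bp gave -9.65 percentage points for identical lengths. Copies with identical internal CDS lists are a chosen subset of all copies.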
